A study of Mus musculus with 6 samples.

Results

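Genes of the bone morphogenetic protein (BMP) and transforming growth factor beta (TGF-beta) pathways were measured in the mouse glomerulus, the capillary tuft in which the kidney filters blood. The 9 genes were taken by name from a list of pathway members: the ligands Bmp4, Bmp7 and Tgfb1, the receptors Tgfbr2 and Eng, and the target genes Id1, Id3, Smad6 and Smad7. They are 9 of 28327 genes with a row in the single-cell tables. A further 72 genes of the pathways (ligands, receptors, Smads and their modulators, targets, antagonists, and genes that hold or release latent TGF-beta) were followed as context. The mice were CD1 IGS males, an outbred stock, aged 8 weeks. Glomeruli were dissociated and their cells fixed in 80% methanol for 4 Drop-seq libraries (replicates 1 to 4). In Drop-seq each cell shares a droplet with a bead whose oligonucleotides carry a cell barcode and unique molecular identifiers (UMIs), so that a transcript is counted 1 time. 1 bulk library came from dissociated, fixed and sorted cells (95 ng of RNA), and 1 from whole, unfixed glomeruli (500 ng). Whether the libraries are from different animals is not in the labels, and p-values therefore reflect library-to-library spread alone, which may be technical.

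Ligands of the superfamily bind pairs of type I and type II receptors on the cell surface, which phosphorylate Smad proteins that carry the signal into the nucleus. BMP signals run mainly through Smad1 and Smad5 and switch on the Id genes, whose products block DNA binding by other transcription factors. TGF-beta signals run mainly through Smad2 and Smad3. Smad6 and Smad7 are inhibitory Smads that the pathway induces and that dampen it. In the kidney, BMP7 is needed for development and is known as a product of podocytes, the epithelial cells that wrap the capillaries, while TGF-beta is known for its part in glomerular scarring.

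The Drop-seq tables held 3528543 to 6411775 UMIs per library, and 13993 of 15465 barcodes were kept, with medians of 816 to 1156 UMIs per cell. The cells fell into 15 clusters, built without the pathway genes, and each was named from marker genes. They held 10478 podocyte-like, 1851 endothelial-like, 926 tubular-like, 361 parietal epithelial-like (the cells that line the capsule around the tuft), 327 mural-like (smooth muscle, renin and mesangial markers) and 50 immune-like cells. Podocyte markers took 2.09% of UMIs in podocyte-like cells, 1.27% in parietal epithelial-like cells and 0.182% to 0.416% in endothelial-like, mural-like and tubular-like cells. None of the 8 podocyte markers was at 0 in any of these types. Mixed cells, those with at least 2 markers of a second type, made up 91.1% of parietal epithelial-like, 32.7% to 33.5% of endothelial-like, mural-like and tubular-like, and 3.51% of podocyte-like cells. Parietal epithelial markers took 0.0528% of UMIs in the cells named for them, with 1 of 6 markers at 0. 3 barcodes of kept cells stood in 2 libraries.

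Levels are given as UMIs per 1000000 UMIs of the type's summed cells in a library (CPM). For every type the 9 genes were compared with the average, on the log scale, of the remaining 4 types by edgeR's quasi-likelihood test across 7553 genes, with the library as a block, and called at a Benjamini-Hochberg adjusted p under 0.05. A type with few UMIs lowers that average, and with 0 UMIs in a type it has no finite value. This held for 378 of the genes tested and for 0 of the 9, and the direct tests between pairs of types do not use it. Endothelial-like cells had 7 of the 9 genes higher (26.3% of all genes tested were called higher there) and 1 lower (23.1%). Mural-like cells had 5 higher (11.9%) and 0 lower (9.6%). Podocyte-like cells had 1 higher (27.9%) and 5 lower (19.5%). Tubular-like cells also had 1 higher (28.7%) and 5 lower (24.8%). Parietal epithelial-like cells had 1 higher (9.85%) and 2 lower (5.48%). The median log2 fold of the 9 genes was 2.26 in endothelial-like and 1.65 in mural-like cells, where the median over all genes was -0.03 and -0.12. It was -1.72 in podocyte-like, -1.20 in tubular-like and -0.70 in parietal epithelial-like cells, where all genes had medians of 0.06, 0.00 and -0.03. With levels ordered from the highest type to the lowest, 17 of 36 neighbouring pairs of types passed the threshold. The order was set from the same levels, and a pair was counted only in the direction of that order. Of all genes, 14.2% were higher and 10.7% lower in endothelial-like than in mural-like cells, 18.2% and 16.4% against parietal epithelial-like, 28.5% and 32.5% against podocyte-like, and 30.7% and 30.8% against tubular-like cells. In mural-like cells 10.1% were higher and 9.43% lower than in parietal epithelial-like, 15.9% and 17.6% than in podocyte-like, and 17.2% and 22% than in tubular-like cells. In parietal epithelial-like cells 4.33% were higher and 3.93% lower than in podocyte-like, and 17.3% and 20.4% than in tubular-like cells. In podocyte-like cells 29.1% were higher and 29.9% lower than in tubular-like cells.

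**Figure D1:**
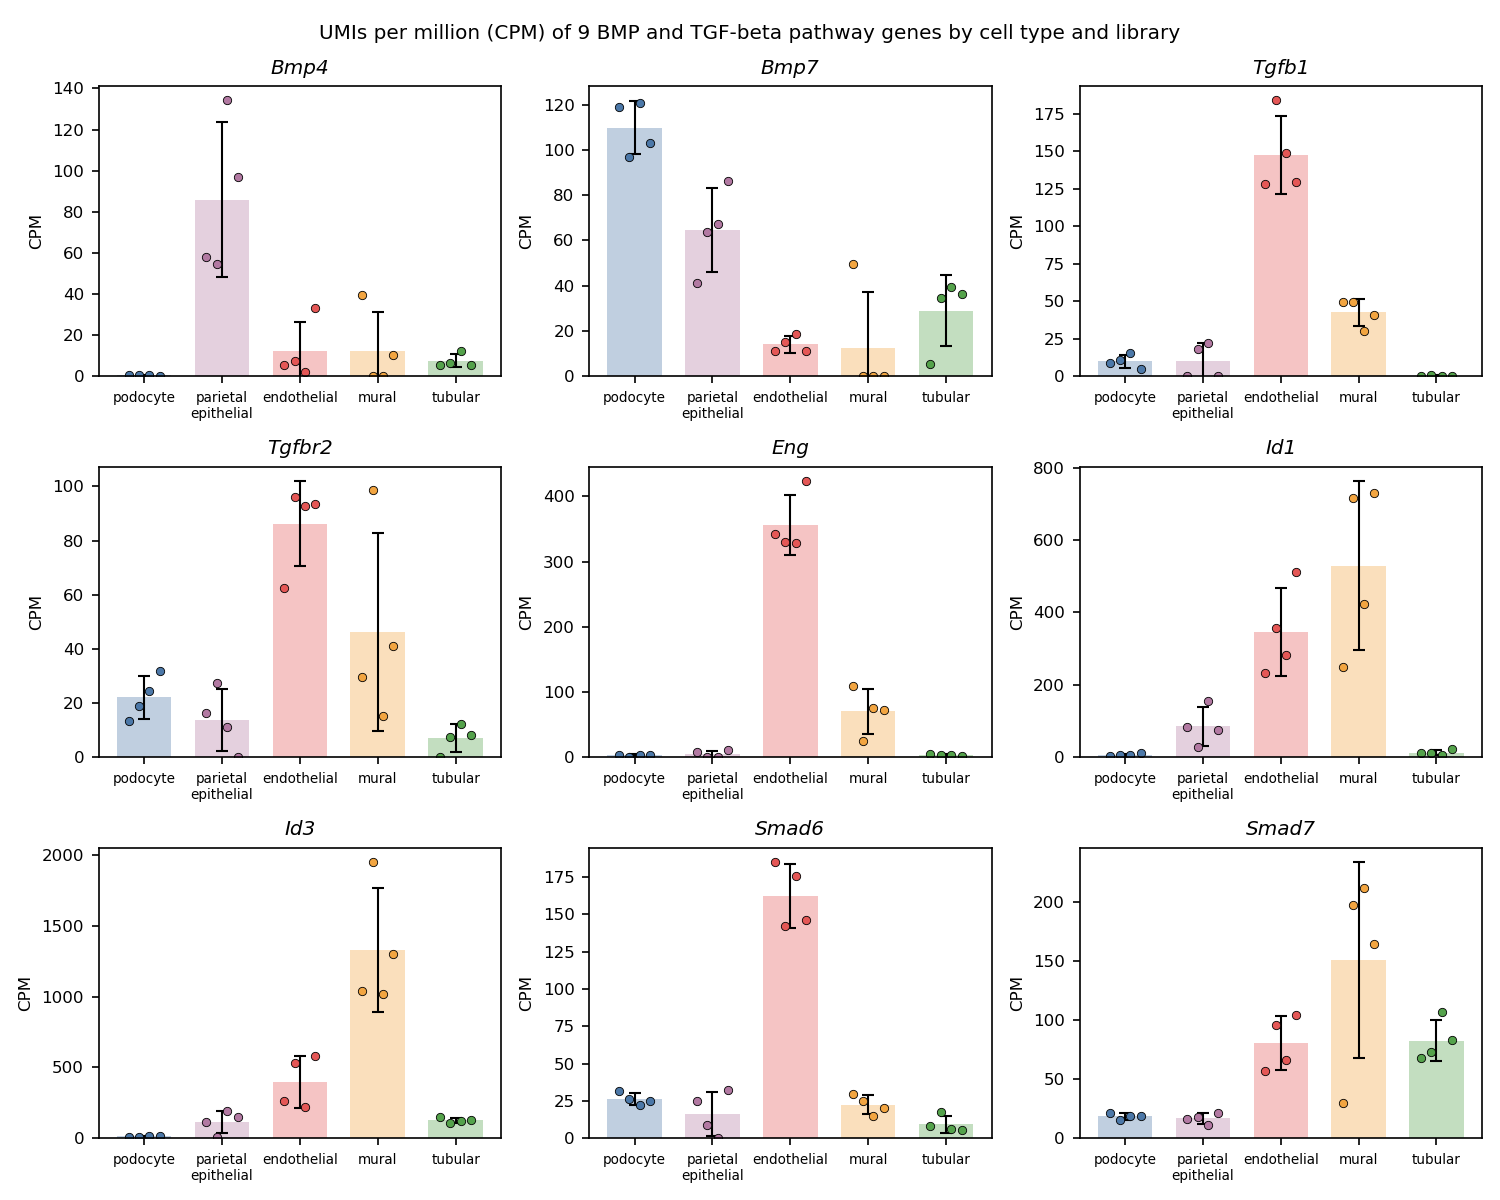
CPM (y axis, linear, from 0) of each of the 9 genes in 5 cell types (x axis), with a point per library, bars for the mean and lines for the SD over 4 libraries. Bmp4 stands highest in parietal epithelial-like cells (54.7 to 134 CPM), Bmp7 in podocyte-like cells (96.7 to 121 CPM), Tgfb1, Tgfbr2, Eng and Smad6 in endothelial-like cells, and Id1, Id3 and Smad7 in mural-like cells.

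Bmp4, a BMP ligand (GRCm38 chr14:46383520-46390669, minus strand), had its highest level of the 5 types in parietal epithelial-like cells. Its levels there were 57.8, 54.7, 134 and 97.1 CPM in replicates 1 to 4, from 34 of the 78 UMIs in the 5 types. The other types had means of 12.5 CPM (mural-like), 12.1 CPM (endothelial-like), 7.50 CPM (tubular-like) and 0.520 CPM (podocyte-like). Every parietal epithelial-like library was above every library of the other types. Bmp4 was higher in the parietal epithelial-like type (log2 fold 3.74 ± 0.47 SE, adjusted p = 2.89e-10, higher in 4 of 4 libraries) and lower in podocyte-like cells (log2 fold -4.70 ± 0.59 SE, adjusted p = 6.13e-11). The podocyte-like value rested on 7 UMIs among 12837050. Bmp4 passed the filter on low counts only through the parietal epithelial-like sums, so that it was tested at all depended on its high level there. At a mitochondrial limit of 10% and with types by marker score alone, it did not pass that filter and was not tested. The middle types could not be ordered beyond their spread. Without replicate 3 or 4, parietal epithelial-like and mural-like cells no longer differed past the threshold in the test of that pair (adjusted p = 0.116 and 0.0888). 2 genes of the GENCODE annotation overlap Bmp4 on the opposite strand, and the strand setting of the counting is not given in the sources used here.

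Bmp7 (chr2:172868012-172940321, minus strand), the BMP ligand of podocytes, had 119, 96.7, 121 and 103 CPM in podocyte-like cells. Parietal epithelial-like cells followed with 41.3, 63.8, 67.1 and 86.3 CPM, all below the podocyte-like libraries. Bmp7 was higher in podocyte-like cells (log2 fold 2.08 ± 0.19 SE, adjusted p = 8.92e-17) and lower in endothelial-like cells (log2 fold -1.64 ± 0.41 SE, adjusted p = 5.20e-04). Mural-like cells had 49.6 CPM in replicate 1, from 5 UMIs, and 0 UMIs in the other 3 libraries. Without replicate 1, mural-like cells had 0 UMIs and the average that includes them has no finite value, so the values of that fit (an endothelial-like log2 fold of 0.011, adjusted p = 0.879, and calls in mural-like, parietal epithelial-like and tubular-like cells) cannot be read as levels. Against podocyte-like cells directly, endothelial-like cells were lower (log2 fold -2.98 ± 0.28 SE, adjusted p = 4.22e-16). In parietal epithelial-like cells the log2 fold of 0.92 missed the threshold (adjusted p = 0.122). It passed at a mitochondrial limit of 10% (0.0387), at resolution 1.5 (0.0485) and with types by marker score alone (2.60e-06). It also passed without subclusters with leading markers of another type (0.00880). The podocyte-like lead over parietal epithelial-like cells (log2 fold 0.93 ± 0.31 SE, adjusted p = 0.0475) missed the threshold without any 1 of the 4 replicates (adjusted p = 0.0958 to 0.252).

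Tubular-like cells had 34.7, 39.7 and 36.2 CPM of Bmp7 in replicates 2 to 4 and 5.66 CPM in replicate 1. Podocyte markers were found in every type, at the shares of UMIs given above, and the part of podocyte RNA in the Bmp7 levels outside podocyte-like cells was not tested. Among 8 podocyte-like clusters, Bmp7 had means between 78.9 ± 28.6 CPM in cluster 10 and 146 ± 23.1 CPM in cluster 5 (SD, n = 4).

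Tgfb1, the main TGF-beta ligand (chr7:25687002-25705077, plus strand), had 128, 184, 149 and 129 CPM in endothelial-like cells. Mural-like cells had 49.6, 49.4, 30.3 and 41.1 CPM, from 13 UMIs in all. Both stood above podocyte-like cells, which had 4.77 to 15.7 CPM, and tubular-like cells, with 1 UMI in 4 libraries. Tgfb1 was higher in endothelial-like cells (log2 fold 4.34 ± 0.27 SE, adjusted p = 7.23e-26) and lower in tubular-like cells (log2 fold -5.28 ± 0.82 SE, adjusted p = 2.98e-08). It was also higher in mural-like cells (log2 fold 2.07 ± 0.60 SE, adjusted p = 0.00656, higher in 4 of 4 libraries). That call was lost without replicate 1 (adjusted p = 0.0881) and without replicate 4 (0.0584). It was also lost without mixed cells (0.151), with types by marker score alone (0.890) and against all other cells summed (0.375). Leaving out 122 mural-like cells of subclusters with leading markers of other types lost it as well (0.141, an alternative chosen after seeing the data). Of these cells, 84 lay in a subcluster led by Ptn, a mesangial marker, with the endothelial marker Plvap also among its leading genes. In tubular-like cells the call was lost at a mitochondrial limit of 10% (0.0509). Endothelial markers took 0.761% of UMIs in endothelial-like cells and 0.0716% in mural-like cells, and their part in the mural-like level of Tgfb1 was not tested. The 50 immune-like cells, too few to test, had 14 Tgfb1 UMIs, or 318 CPM pooled.

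Tgfbr2, the type II receptor for TGF-beta (chr9:116084293-116175360, minus strand), had 62.6, 95.9, 92.9 and 93.6 CPM in endothelial-like cells. Mural-like cells had 29.8, 98.8, 15.2 and 41.1 CPM, and the ranges overlapped. Podocyte-like cells had a mean of 22.2 CPM, parietal epithelial-like 13.8 CPM and tubular-like 7.01 CPM. Tgfbr2 was higher in endothelial-like cells (log2 fold 2.26 ± 0.26 SE, adjusted p = 3.19e-12, higher in 4 of 4 libraries) and lower in tubular-like cells (log2 fold -1.82 ± 0.43 SE, adjusted p = 2.20e-04). The lead of endothelial-like over mural-like cells (log2 fold 1.21 ± 0.45 SE, adjusted p = 0.0348) missed the threshold without replicate 1, 3 or 4 (adjusted p = 0.0713, 0.177 and 0.140).

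Eng (chr2:32646595-32682669, plus strand), the gene for endoglin, a co-receptor of endothelial cells that is mutated in hereditary haemorrhagic telangiectasia, gave the largest log2 fold of the 45 pairs of gene and type. Endothelial-like cells had 342, 330, 328 and 424 CPM. Mural-like cells had 109, 24.7, 75.8 and 71.8 CPM, and the means of podocyte-like, parietal epithelial-like and tubular-like cells were 2.94, 4.76 and 3.58 CPM. Eng was higher in endothelial-like cells (log2 fold 5.44 ± 0.19 SE, adjusted p = 4.49e-43) and among mural-like cells (log2 fold 2.51 ± 0.46 SE, adjusted p = 6.99e-06). It was lower in podocyte-like (log2 fold -3.20 ± 0.63 SE, adjusted p = 1.11e-05) and tubular-like cells (log2 fold -2.39 ± 0.65 SE, adjusted p = 0.00113). The lower parietal epithelial-like value (log2 fold -2.36 ± 0.83 SE, adjusted p = 0.0403) rested on 2 UMIs and missed the threshold without any 1 of the 4 replicates (adjusted p = 0.0765 to 0.170). Per 100 UMIs of Flt1, an endothelial receptor gene, there were 44.7 Eng UMIs in podocyte-like cells (76 Flt1 UMIs) and 50.8 in endothelial-like cells (1022). In mural-like cells the ratio was 141, but from only 17 Flt1 UMIs. Of the 24 Eng UMIs there, 16 lay in the 84 cells of a subcluster led by Ptn, Mrc1 and Plvap, with endothelial markers at 0.205% of UMIs. The part of endothelial RNA in the mural-like Eng level was not tested. Without the subclusters with leading markers of other types, the one led by Ptn among them, the mural-like log2 fold of Eng was 1.83 (adjusted p = 0.0523). It was 1.54 without mixed cells (0.0813), 0.99 with types by marker score alone (0.248) and 0.85 against all other cells summed (0.159). The tubular-like call was lost at a mitochondrial limit of 10% (adjusted p = 0.247). 4 genes of the GENCODE annotation overlap Eng, 3 of them small RNA genes on its strand and Fpgs on the other.

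Smad6 (chr9:63953076-64022059, minus strand), an inhibitory Smad that acts chiefly on BMP signals, had 185, 142, 175 and 146 CPM in endothelial-like cells. The other types had means of 26.4 CPM (podocyte-like), 22.5 CPM (mural-like), 16.6 CPM (parietal epithelial-like) and 9.49 CPM (tubular-like). All endothelial-like libraries were above all others, and no neighbouring pair among the other types passed the threshold. Smad6 was higher in endothelial-like cells (log2 fold 3.09 ± 0.21 SE, adjusted p = 2.01e-23) and lower in tubular-like cells (log2 fold -1.20 ± 0.37 SE, adjusted p = 0.00469). The call in tubular-like cells was lost without replicate 1 (adjusted p = 0.0694), without mixed cells (0.0999) and at a mitochondrial limit of 10% (0.128). Mural-like cells, where Id1 and Id3 were high, had 7 Smad6 UMIs.

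Among the 5 types tested, Tgfb1, Tgfbr2, Eng and Smad6 were each highest in endothelial-like cells, while Tgfb1 was at 318 CPM pooled in the 50 immune-like cells, which were not tested. The 250 bases before their RefSeq start sites (GRCm38.p6) are shown because these 4 genes share the highest of the 5 types. The order of the other types differed among them. Capitals mark the Smad-binding letters CAGAC on either strand (GTCTG on the other), and each sequence runs 5′ to 3′ on the gene's strand.
Tgfb1: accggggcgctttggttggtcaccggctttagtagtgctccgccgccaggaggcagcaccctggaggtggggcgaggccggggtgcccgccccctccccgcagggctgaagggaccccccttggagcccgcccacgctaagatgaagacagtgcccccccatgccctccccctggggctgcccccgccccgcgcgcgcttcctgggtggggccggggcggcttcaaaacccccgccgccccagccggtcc
Tgfbr2: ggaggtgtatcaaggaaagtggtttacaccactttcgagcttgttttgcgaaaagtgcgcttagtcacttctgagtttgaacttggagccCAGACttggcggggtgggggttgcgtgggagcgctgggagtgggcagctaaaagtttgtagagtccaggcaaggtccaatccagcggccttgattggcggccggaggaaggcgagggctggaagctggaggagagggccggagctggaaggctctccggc
Eng: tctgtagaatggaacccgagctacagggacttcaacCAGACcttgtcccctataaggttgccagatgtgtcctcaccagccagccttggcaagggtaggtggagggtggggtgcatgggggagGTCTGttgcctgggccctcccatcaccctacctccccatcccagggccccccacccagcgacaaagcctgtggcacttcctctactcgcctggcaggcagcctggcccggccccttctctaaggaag
Smad6: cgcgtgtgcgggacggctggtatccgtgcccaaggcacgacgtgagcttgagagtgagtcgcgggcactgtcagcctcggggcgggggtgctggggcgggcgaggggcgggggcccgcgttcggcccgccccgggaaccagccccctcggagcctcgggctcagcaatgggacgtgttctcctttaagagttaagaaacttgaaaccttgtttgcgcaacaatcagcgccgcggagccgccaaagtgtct
The windows are chr7:25686752-25687001 (plus strand), chr9:116175364-116175613 (minus), chr2:32646345-32646594 (plus) and chr9:64022060-64022309 (minus), and none overlaps an exon of the GENCODE annotation. CAGAC was found 2 times before Eng and 1 time before Tgfbr2, and 0 times before Tgfb1 and Smad6. It stood in 42.2% of 32851 RefSeq windows of the same length. The GC-rich BMP-type element GGCGCC was in none of the 4 windows and in 9.59% of all windows. The windows had 75.2% (Tgfb1), 58.4% (Tgfbr2), 62.4% (Eng) and 66.8% (Smad6) G and C. The matches are a description of these letters. RefSeq windows were matched for 6 of the 9 genes, not for Bmp7, Id1 and Smad7.

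Id1 (chr2:152736251-152737410, plus strand) and Id3 (chr4:136143497-136145755, plus strand), both direct targets of BMP signals, were high in mural-like and endothelial-like cells. Id1 had 248, 716, 425 and 729 CPM in mural-like cells. It had 234, 357, 283 and 512 CPM in endothelial-like cells, and the ranges overlapped. The pair did not pass the threshold (log2 fold of mural-like over endothelial-like 0.42 ± 0.18 SE, adjusted p = 0.0812), but it did without replicate 1 (adjusted p = 0.0436) and with DESeq2 size factors (log2 fold 0.51, adjusted p = 0.0295). Id1 was higher than in the mean of the other types in mural-like (log2 fold 3.44 ± 0.21 SE, adjusted p = 1.24e-26) and endothelial-like cells (2.91 ± 0.15 SE, adjusted p = 3.85e-32). It was lower in podocyte-like (log2 fold -3.96 ± 0.23 SE, adjusted p = 2.22e-28) and tubular-like cells (-2.66 ± 0.27 SE, adjusted p = 1.51e-14).

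Id3 had 1042, 1950, 1016 and 1304 CPM in mural-like cells, the highest level of any of the 9 genes. Endothelial-like cells had 262, 529, 221 and 578 CPM, and podocyte-like cells had 10.2, 9.62, 17.0 and 14.7 CPM. All mural-like libraries lay above all endothelial-like libraries, and those above all podocyte-like ones. Id3 was higher in mural-like (log2 fold 3.63 ± 0.17 SE, adjusted p = 3.14e-34) and endothelial-like cells (1.62 ± 0.15 SE, adjusted p = 5.31e-17), and lower in podocyte-like cells (-4.51 ± 0.21 SE, adjusted p = 6.68e-34). An Id3 UMI was found in 50.5% of mural-like cells (165 of 327, exact 95% binomial interval 44.9% to 56.0%, counting error only), with a median depth of 777 UMIs. In podocyte-like cells, with a median of 1017 UMIs, the share was 1.31% (interval 1.10% to 1.54%). Thinned to 500 UMIs per cell, the shares were 40.2% and 0.642%, after 46 mural-like and 662 podocyte-like cells with fewer UMIs were left out. Id3 and Id1 differed in tubular-like cells, where Id3 had 106 to 150 CPM and Id1 6.10 to 22.3 CPM. In parietal epithelial-like cells, Id3 had 116, 9.12, 190 and 151 CPM, and its lower value there missed the threshold (log2 fold -0.70, adjusted p = 0.0869). It passed without replicate 3 (adjusted p = 0.0148), with no filter on low counts (0.0162) and with types by marker score alone (0.0102). It also passed without subclusters with leading markers of another type (0.00515).

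Podocyte-like cells, highest in Bmp7, had the lowest mean levels of Id1 and Id3 of the 5 types. For Id1 the library ranges of tubular-like and podocyte-like cells overlapped, and the lead of tubular-like cells (log2 fold 1.03 ± 0.38 SE, adjusted p = 0.0165) missed the threshold without replicate 2 (0.0678), without replicate 4 (0.0818) and without the replicate block (0.0692). Among their 8 clusters, Id3 averaged 24.5 ± 2.81 CPM in cluster 4 (led by Creb3l2) and 28.5 ± 11.6 CPM in cluster 9 (led by Jun). The other 6 clusters had means between 5.96 and 17.0 CPM. None of these clusters reached the lowest endothelial-like library.

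Smad7 (chr18:75367529-75395935, plus strand), the inhibitory Smad that acts on both arms, was the only one of the 9 genes that was called higher in tubular-like cells, joined by Id3 against all other cells summed and by Bmp7 without replicate 1. Its levels were 29.8, 198, 212 and 164 CPM in mural-like cells. Tubular-like cells had 67.9, 73.1, 107 and 83.5 CPM and endothelial-like cells 57.0, 95.9, 66.1 and 105 CPM. These 3 types overlapped and no neighbouring pair of them passed the threshold. Smad7 was higher in mural-like (log2 fold 1.65 ± 0.34 SE, adjusted p = 5.06e-05, higher in 3 of 4 libraries), tubular-like (1.28 ± 0.22 SE, adjusted p = 4.19e-07) and endothelial-like cells (0.82 ± 0.24 SE, adjusted p = 0.00263). It was lower in podocyte-like (-1.72 ± 0.28 SE, adjusted p = 2.48e-07) and parietal epithelial-like cells (-2.03 ± 0.49 SE, adjusted p = 0.00102), which had means of 18.5 and 16.9 CPM. The endothelial-like call was lost without mixed cells (log2 fold 0.41, adjusted p = 0.154), the mural-like call with types by marker score alone (0.75, adjusted p = 0.136), and the parietal epithelial-like call against all other cells summed (-1.09, adjusted p = 0.341).

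The other pathway genes were read by list. 38 of the 72 passed the filter on low counts, 5 of the 72 had no row, and the counts below are of those 38. In endothelial-like cells 13 were higher and 12 lower, and in mural-like cells 14 higher and 1 lower. In podocyte-like cells 11 were higher and 21 lower, in parietal epithelial-like cells 10 higher and 2 lower, and in tubular-like cells 8 higher and 18 lower. The medians over the 38 genes were 0.17, 0.51, -0.91, 0.40 and -0.64 on the log2 scale in the same order of types.

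**Figure D2:**
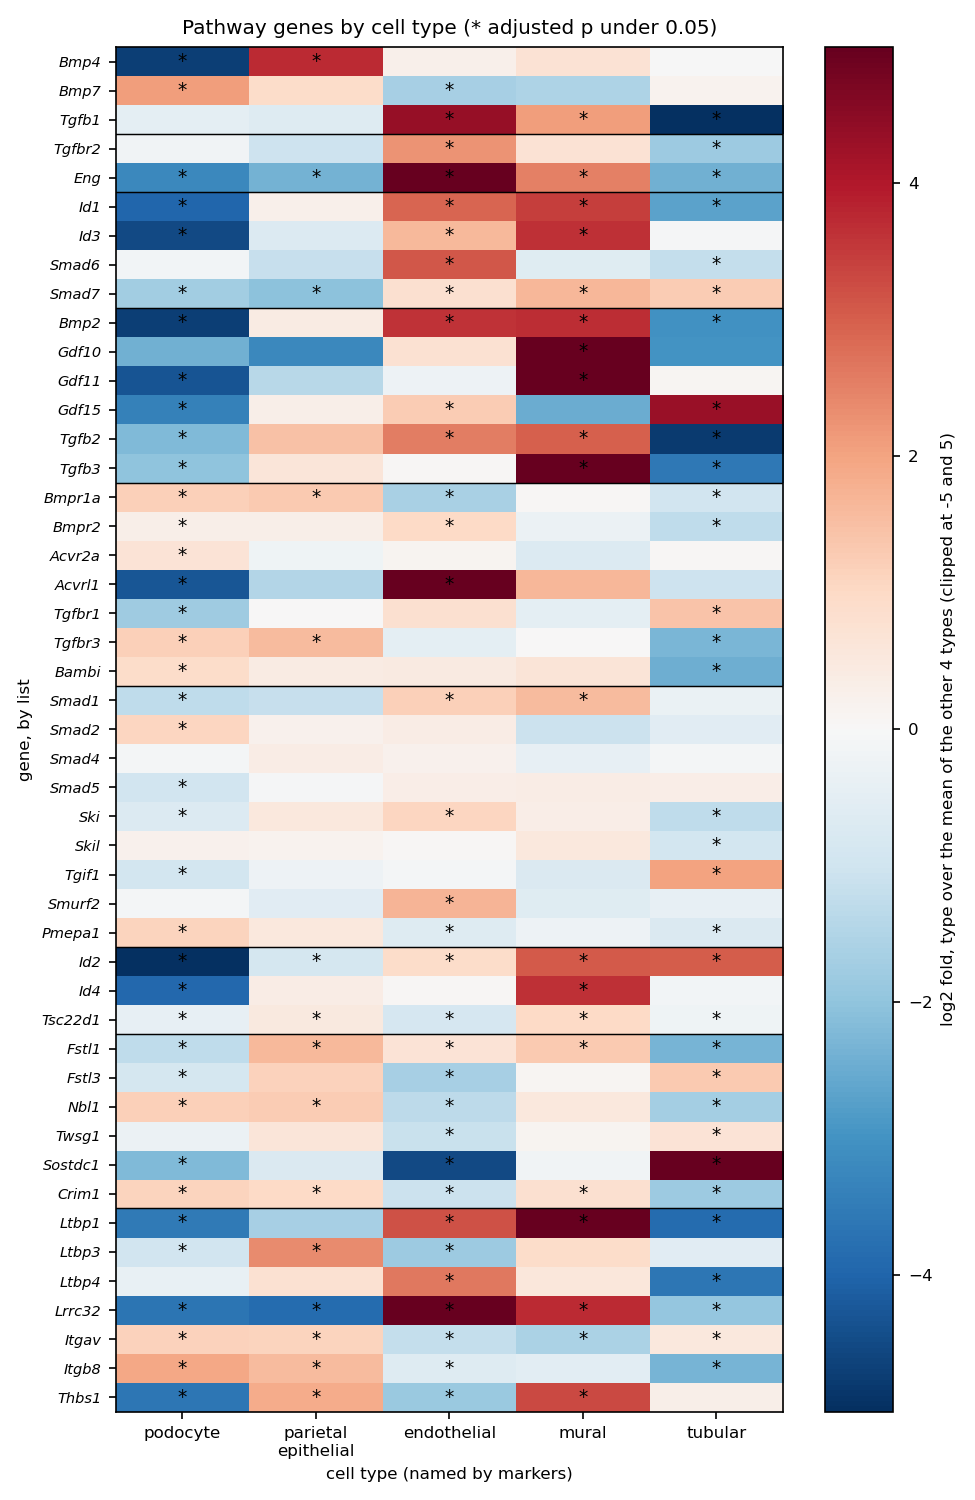
Log2 fold of each type over the mean of the other 4 types (colour, clipped at -5 and 5) for the 9 genes and the 38 other pathway genes tested (rows, by list, with lines between lists). Stars mark adjusted p under 0.05, as for Eng and Lrrc32 in endothelial-like cells and Id1 and Id3 in mural-like cells.

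In endothelial-like cells the lists were mixed. Of 7 receptors tested, 2 were higher and 1 lower: Acvrl1, the type I receptor that pairs with endoglin, had 176 ± 20.2 CPM (SD, n = 4) and a log2 fold of 5.08 (adjusted p = 2.21e-31). Bmpr2, a type II BMP receptor, had a log2 fold of 0.99 (adjusted p = 1.06e-08). Of 7 latency genes, 3 were higher and 4 lower. Lrrc32, whose product holds latent TGF-beta on the cell surface, had 467 ± 45.1 CPM and a log2 fold of 5.64 (adjusted p = 8.38e-46). Ltbp1 and Ltbp4, latent TGF-beta binding proteins of the matrix, had log2 folds of 3.19 and 2.65. Of 6 ligands, 3 were higher, among them Bmp2 (55.1 ± 15.4 CPM, log2 fold 3.63, adjusted p = 1.08e-13). Of 6 antagonists, 1 was higher and 5 lower.

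Mural-like cells had 5 of 6 other ligands higher and 0 lower. Gdf10 had 59.5, 49.4, 121 and 92.4 CPM there, against 3 UMIs in the other 4 types together. It passed the filter on low counts only through the mural-like sums. Not every other type had a Gdf10 UMI, so the average behind its call, which is among the 5, has no finite value. Gdf11 had 148 ± 96.5 CPM and Tgfb3 86.6 ± 31.7 CPM in mural-like cells, with log2 folds of 5.86 (adjusted p = 6.54e-18) and 4.97 (adjusted p = 4.38e-12). All 3 other target genes tested were higher, with log2 folds of 3.66 for Id4, 3.06 for Id2 and 0.99 for Tsc22d1. Ltbp1 (log2 fold 5.84) and Thbs1, the gene for thrombospondin 1, an activator of latent TGF-beta (3.32), were higher as well. None of the 7 other receptors passed the threshold in mural-like cells with edgeR's test.

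In podocyte-like cells 5 of 7 other receptors were higher and 2 lower. Bmpr1a, a type I BMP receptor, had 171 ± 18.1 CPM (log2 fold 1.19, adjusted p = 6.78e-14), and Tgfbr3, the co-receptor betaglycan, had 130 ± 27.4 CPM (1.18, adjusted p = 7.22e-12). Itgb8 and Itgav, whose products form an integrin that activates latent TGF-beta, had log2 folds of 1.93 and 1.13. The antagonists Nbl1 and Crim1 had 1.21 and 1.10. Against these, 5 of 6 other ligands and all 3 other targets were lower: Id2 had 3.33 ± 0.589 CPM and a log2 fold of -6.16 (adjusted p = 1.35e-36). Parietal epithelial-like cells shared the higher values of Bmpr1a, Tgfbr3, Nbl1, Itgb8 and Itgav, with podocyte markers at 1.27% of their UMIs, whose part was not tested. Against all other cells summed, none of these 5 passed the threshold there (adjusted p = 0.0509 to 0.960, edgeR). Ltbp3, at 72.3 ± 45.5 CPM there and 10.2 ± 1.76 CPM in podocyte-like cells (SD, n = 4 each), was higher in parietal epithelial-like cells (log2 fold 2.37, adjusted p = 1.58e-05).

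Tubular-like cells were marked by Sostdc1, a secreted BMP antagonist, with 450, 600, 564 and 677 CPM (log2 fold 7.61, adjusted p = 4.79e-55). Every other type had a mean under 9 CPM. Gdf15, a stress-induced ligand, had 107 ± 54.9 CPM (log2 fold 4.31, adjusted p = 6.44e-24), and Id2 459 ± 112 CPM (log2 fold 3.03, adjusted p = 3.01e-38). Both were uneven among the tubular-like subclusters described below. In edgeR's test they were higher in connecting tubule and principal cell-like cells (3.60, adjusted p = 4.71e-13, and 2.31, adjusted p = 9.29e-16). Gdf15 was lower in the 275 cells of a distal convoluted tubule-like subcluster (-1.56, adjusted p = 0.00516). Of 7 latency genes 1 was higher and 4 lower, and of 6 other ligands 1 was higher and 3 lower.

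The endothelial-like cells were clustered again, without the pathway genes. Of 4 subclusters, 1033 cells were glomerular capillary-like (leading genes Ehd3 and Kdr) and 177 were arterial-like (Mgp, Fbln5 and Jag1), while 442 cells (led by Calca and Plac8) and 199 cells (led by podocyte genes, with podocyte markers at 1.46% of UMIs) stayed unnamed. 5 of the 9 genes passed the filter on low counts in the test of each subcluster against the mean of the other 3. Glomerular capillary-like cells had 3 of them higher (16.1% of 1952 genes tested) and 0 lower (15.1%), and arterial-like cells 2 higher (9.38%) and 0 lower (6.05%). With no filter on low counts they were 4 and 3 of 9. In the 442 unnamed cells 0 were higher and 2 lower (11.1% each way). Of these Id1 (log2 fold -0.72, adjusted p = 0.0170) was lost without replicate 1 (0.0676), 3 (0.108) or 4 (0.112), and without the replicate block (0.0545). In the 199 cells led by podocyte genes 0 were higher (23.3%) and 5 lower (19.2%), of which Smad6 (-1.09, adjusted p = 0.0171) was lost without replicate 1 (0.107), 2 (0.0504) or 4 (0.0531).

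Id1 and Id3 were highest in arterial-like cells. Id1 had 750, 934, 900 and 835 CPM there, against 275, 287, 310 and 560 CPM in glomerular capillary-like cells. Id3 had 792, 1271, 612 and 1253 CPM in arterial-like cells and 312, 552, 249 and 516 CPM in glomerular capillary-like cells. The groups did not overlap. The log2 folds of arterial-like cells over the mean of the other subclusters were 1.82 ± 0.22 SE for Id1 (adjusted p = 1.28e-09) and 1.94 ± 0.19 SE for Id3 (adjusted p = 2.55e-12), and both held in 4 of 4 libraries. Between the 2 named subclusters directly, glomerular capillary-like over arterial-like, the log2 folds were -1.27 (adjusted p = 1.59e-05) and -1.34 (adjusted p = 3.89e-07). In this pair 9.12% of genes were higher and 10.3% lower, and it was not refitted without single libraries.

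Tgfb1 and Smad6 were higher in glomerular capillary-like than in arterial-like cells. Tgfb1 had 187, 318, 209 and 170 CPM in glomerular capillary-like cells, and 83.3, 37.4, 108 and 115 CPM in arterial-like cells. Smad6 had 269, 189, 249 and 230 CPM in glomerular capillary-like cells, and 208, 74.7, 36.0 and 72.0 CPM in arterial-like cells, from 13 UMIs. Tgfb1 did not overlap between the 2 subclusters and Smad6 did, through replicate 1. Over the mean of the other subclusters, glomerular capillary-like cells had log2 folds of 1.47 ± 0.25 SE for Tgfb1 (adjusted p = 6.31e-06), 1.37 ± 0.24 SE for Smad6 (adjusted p = 1.13e-05) and 1.01 ± 0.18 SE for Eng (adjusted p = 1.16e-05). Directly over arterial-like cells, Tgfb1 (1.08, adjusted p = 0.0485) and Smad6 (1.27, adjusted p = 0.0175) passed the threshold, and Eng did not (0.60, adjusted p = 0.113). Acvrl1, a receptor that pairs with endoglin, had a log2 fold of -0.75 in the same test (adjusted p = 0.0926). Over the mean of the other subclusters it was higher in arterial-like cells (0.95, adjusted p = 0.0238) and did not pass the threshold in glomerular capillary-like cells (-0.04, adjusted p = 0.916). Tgfbr2, which did not pass the filter on low counts, had 119, 113, 125 and 126 CPM in glomerular capillary-like cells and 0, 37.4, 72.0 and 43.2 CPM in arterial-like cells. The average of the other subclusters includes the 199 cells led by podocyte genes.

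**Figure D3:**
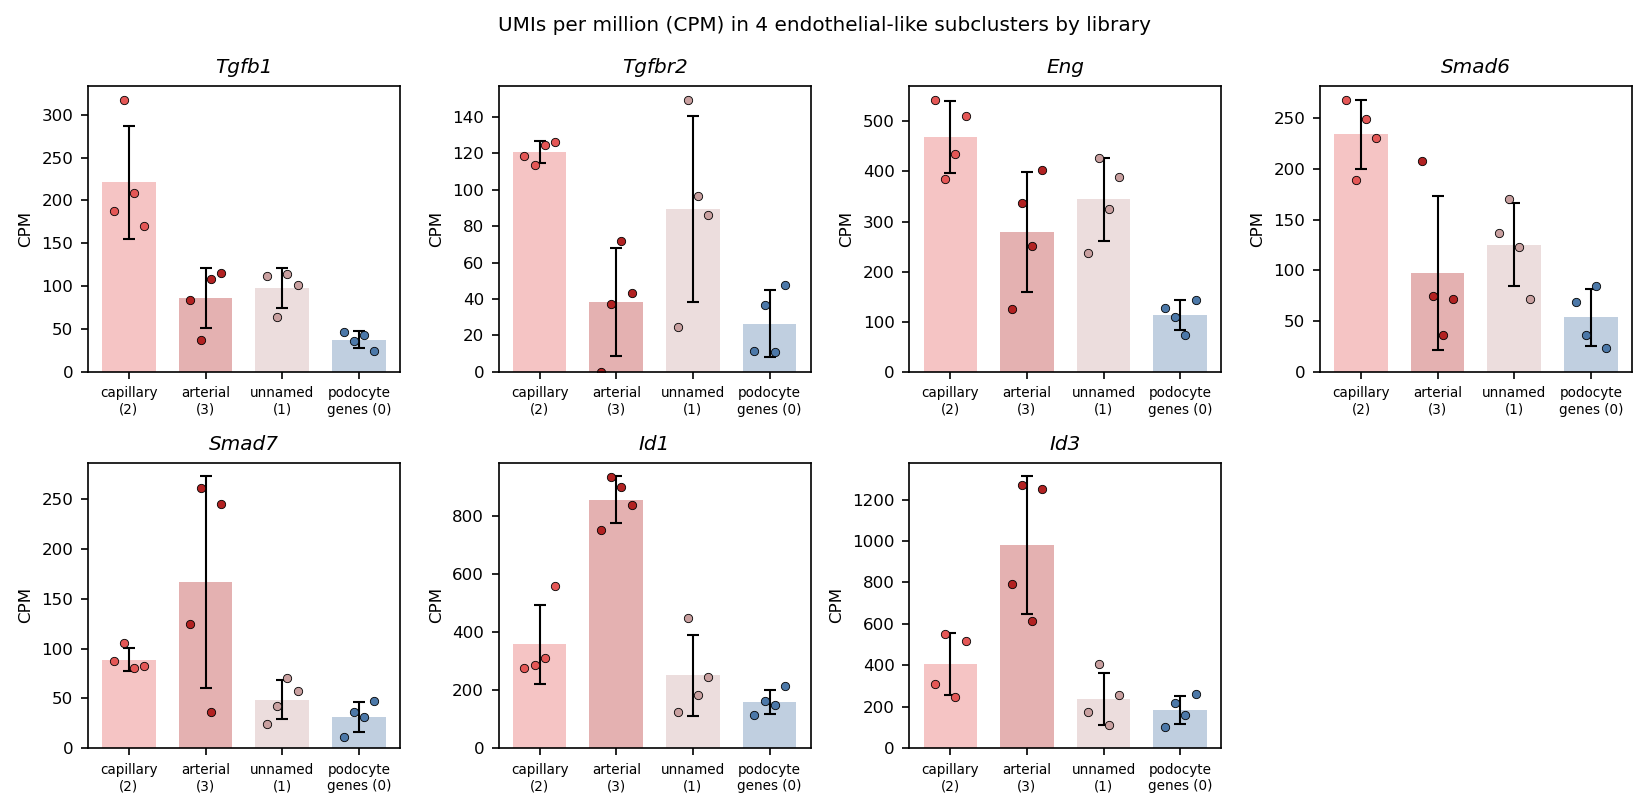
CPM (y axis, from 0) of 7 genes in the 4 endothelial-like subclusters (x axis), with a point per library, bars for the mean and lines for the SD over 4 libraries. Id1 and Id3 stand highest in arterial-like cells and Tgfb1, Tgfbr2, Eng and Smad6 in glomerular capillary-like cells.

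Mural-like subclusters had too few cells per library to test. Id3 was at 1321 to 1480 CPM (pooled over libraries) in the subcluster led by Ptn and in both subclusters that scored highest on smooth muscle markers, and at 315 CPM in 38 cells led by podocyte genes. Id1 was at 977 CPM in the 70 cells of the smooth muscle subcluster with more Ren1 (8221 CPM), and at 468 CPM in the 135 cells of the other (Ren1 893 CPM). By library, Id1 had 870, 1151, 498 and 1139 CPM in the first and 180, 593, 487 and 616 CPM in the second, so the ranges overlapped. Most of the 1757 Ren1 UMIs of mural-like cells lay outside both. Id1 had 25 UMIs among 71171 in the 84 cells led by Ptn, and 7 among 50760 in the 38 led by podocyte genes. The first and second had 68 among 69579 and 53 among 113129. Per UMI, Id1 was thus lower in the subclusters led by Ptn and by podocyte genes, which together held most Ren1 UMIs, than in either smooth muscle subcluster. A link of Id1 with Ren1 was not tested.

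Of the tubular-like subclusters, 3 named ones could be tested, and only Id3 and Smad7 passed the filter on low counts. In the distal convoluted tubule-like (302 and 275 cells) and the connecting tubule and principal cell-like subcluster (133 cells), 0 of the 2 genes passed the threshold with edgeR's test or with DESeq2. In the last of these, tested over 3 libraries, Smad7 had an unadjusted p of 0.00792 and an adjusted p of 0.0603 (log2 fold 1.11), and it passed without replicate 1 (adjusted p = 0.0190) or replicate 4 (0.0458). The calls higher and lower made up 6.37% and 6.13% of 2465 genes there, 7.14% and 5.07% in the first distal convoluted tubule-like subcluster and 8.40% and 6.37% in the other. The smaller subclusters were described without a test. Bmp4 had 7 UMIs among the 22 thick ascending limb-like cells, or 213 CPM pooled (exact Poisson interval 85.5 to 438 CPM), found in each of the 4 libraries, while the 4 subclusters of over 100 cells had 2.20 to 10.1 CPM and the 52 intercalated cell-like cells had 0 UMIs, which allows up to 33.6 CPM (3 counts). The leading genes of that subcluster, ranked from the same UMIs, include Bmp4, so its place among them adds nothing to this count. Id3 and Id1 had 359 and 135 CPM among the 52 intercalated cell-like cells.

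The bulk libraries set dissociated, fixed cells against whole glomeruli, with 24555632 and 28407317 reads on genes. There is 1 library of each, so no test was made, and a gene was counted when its log2 ratio of TMM-scaled CPM passed 1. 7 of the 9 genes were lower in dissociated cells (19.1% of 12692 genes were) and 1 was higher (10.6%). The median log2 ratio of the 9 genes was -1.69, and that of all genes -0.02. In bulk, fewer cells of a type and less RNA per cell cannot be told apart.

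Id3 had 683 reads in dissociated cells and 7755 in whole glomeruli (log2 ratio -2.99). Bmp4 had 111 and 868 reads (-2.44), Eng 4697 and 31582 (-2.24), and Smad7 481 and 2597 (-1.92). Tgfbr2, Id1 and Smad6 had log2 ratios of -1.69, -1.66 and -1.30. Bmp7, the podocyte ligand, had 7255 reads in dissociated cells against 4495 in whole glomeruli (1.20), and fell short of 1 when CPM was scaled by library total (0.90), which moved the median of all genes to -0.32. Tgfb1 differed from Tgfbr2, Eng and Smad6, with 709 and 1068 reads and a log2 ratio of -0.08. Among other pathway genes high in endothelial-like cells, Lrrc32 had a log2 ratio of 0.55 and Acvrl1 of -1.34.

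Markers of the cell types moved as well. In dissociated cells against whole glomeruli, 8 endothelial markers summed to 1644 and 4997 CPM and 6 of the 8 were lower. The 5 mesangial markers summed to 165 and 3134 CPM, and all 5 were lower. The 5 smooth muscle markers summed to 149 and 151 CPM and the 2 renin markers to 281 and 305 CPM, and 0 of these with enough reads passed a log2 ratio of 1 either way. The 4 proximal tubule markers summed to 4.84 and 608 CPM, and all 4 were lower. The 8 podocyte markers summed to 43827 and 23111 CPM, and 6 were higher. Among 9 immune markers, 5 were higher, with sums of 194 and 73.4 CPM. Their part in the ratios of the 9 genes was not tested. Of 56 other pathway genes with enough reads, 8 were higher and 22 lower. The ligands that were high in mural-like cells had negative ratios: Gdf10 had 80 and 5636 reads (-5.60), Gdf11 50 and 1003 (-3.77) and Tgfb3, named after its value was seen, 151 and 333 (-0.62). Of the 12 Smads and modulators, 4 were higher, led by Tgif1, a repressor of TGF-beta responses (2.17), and 2 lower, led by Smad9 (-3.48). Nbl1, higher in podocyte-like cells, had a log2 ratio of 2.11.

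**Figure D4:**
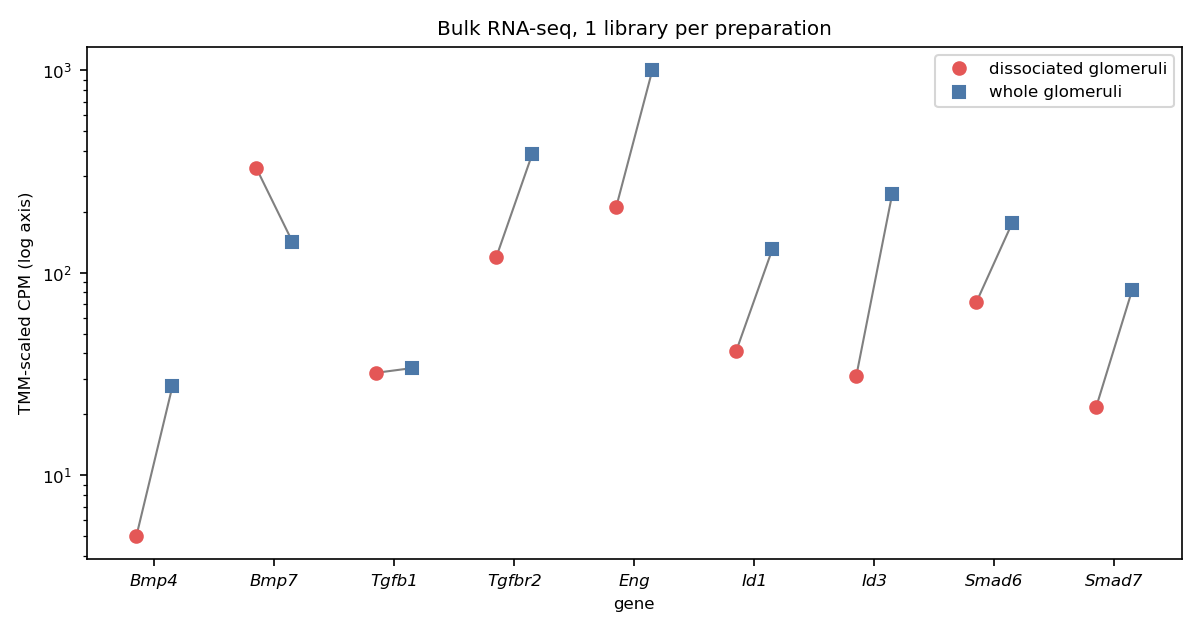
TMM-scaled CPM (y axis, log scale) of the 9 genes in 1 bulk library of dissociated glomeruli (left point of each pair) and 1 of whole glomeruli (right point). Bmp7 is higher in the dissociated library, Tgfb1 is near equal (32.1 and 33.8 CPM), and the other 7 genes are lower.

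The genes whose levels ran most like each of the 9 over the 20 sums of type and library were ranked by Pearson's r of log2 CPM, among about 3649 genes. These sums share libraries and depth, so r is a description. Pdlim7 was nearest to Id1 (r = 0.97), with Serpinh1 and Mgp, and Tinagl1 to Id3 (0.95). Slfn5 was nearest to Eng (0.95), Nrp1 to Tgfb1 (0.92), Ehd3 to Smad6 (0.90) and Tubb4b to Tgfbr2 (0.89). Cyb5a was nearest to Bmp7 (0.94), Cd9 to Smad7 (0.88) and Rnf6 to Bmp4 (0.78). Among the 9 genes themselves, Id1 and Id3 had r = 0.85, Tgfb1 and Tgfbr2 0.81, Bmp7 and Smad7 -0.85, and Bmp7 and Id3 -0.77.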

How the data were processed

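The Drop-seq values are counts of UMIs per gene and barcode and the bulk values read counts per gene, both as the authors deposited them. The submitters' processing notes name STAR and HTSeq; versions, genome build and annotation are not given in the sources used here. Positions are GENCODE GRCm38.

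Barcodes under 300 genes (888) or over 20% mitochondrial UMIs (584) were left out. Cells were clustered without the pathway genes (scanpy 1.11.5, 2000 variable genes, 30 components, 15 neighbours, Leiden resolution 1.0; subclusters 0.5) and named from markers. No doublet caller was run. Sums per library and type (at least 20 cells in at least 3 libraries) were tested with edgeR 4.0.16 (quasi-likelihood, TMM, library as block, Benjamini-Hochberg), with DESeq2 1.42.0 as an alternative, on R 4.3.3. The block pairs sums taken from the same library. The test was also run on simulated counts with no library effect, in which only genes with enough expected counts were changed. That run does not cover genes with few UMIs. Bulk CPM used TMM, a prior count of 2 and at least 100 counts. Bulk reads on no gene, 6.14% (dissociated) and 9.68% (whole), were left out.

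The 9 genes, the lists and the tests were chosen with earlier results of these data known. All 9 genes are given in each comparison. Of the other genes, up to 3 per list and direction with the largest fold among those called were eligible, and the 3 most alike genes per member. Bmp4 in thick ascending limb-like cells and mural-like Eng by subcluster were singled out after their values were seen. Alternatives covered DESeq2, scaling, filters, clustering, mixed cells, the block and single libraries. 1 ratio to a marker gene is not reported here.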

Additional observations from a re-analysis of the deposited data

Results flagged for a closer look

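In 8 of 45 groups of 4 libraries, 1 library stood apart from the other 3 (Dixon's ratio above its 95% critical value), where chance gives about 1 in 20 for normally spread values. That rate does not hold for groups of few UMIs, since UMIs in 1 library and 0 in the other 3 always give the highest ratio, as for Tgfb1 in tubular-like and Bmp7 in mural-like cells. They were Bmp4 in tubular-like cells, replicate 3 (12.2 CPM), and Bmp7 in mural-like cells, replicate 1 (49.6 CPM, with 0 UMIs in the other 3 libraries). Bmp7 in tubular-like cells was low in replicate 1 (5.66 CPM), and Tgfb1 in tubular-like cells had its only UMI in replicate 2 (0.938 CPM). Tgfbr2 in endothelial-like cells was low in replicate 1 (62.6 CPM). Eng was low in podocyte-like cells of replicate 2 (0.687 CPM), high in endothelial-like cells of replicate 4 (424 CPM), and high in tubular-like cells of replicate 1 (5.66 CPM, from 2 UMIs).

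The immune-like cells, which entered no comparison, had Tgfb1 at 318 CPM pooled over 4 libraries, from 14 UMIs in 50 cells, above the limit that a count of 0 allows. It was found in all 4 libraries, at 73.3 to 804 CPM. Bmp4, Eng, Id1, Id3 and Smad6 had 0 UMIs there.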

How the results depend on the processing

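Of 45 pairs of a gene and a type, 28 were called, and 18 of these were called in the same direction under every alternative that gave a value. Without the replicate block 44 of 45 calls were the same. The exception was Eng in parietal epithelial-like cells (adjusted p = 0.0515), so that 1 gene and not 2 was lower there. That count was also 1 with DESeq2, with at least 500 genes per cell, at a mitochondrial limit of 10% and with all other cells summed, and 4 with types by marker score alone. Parietal epithelial-like cells had 2 genes higher, not 1, at resolution 1.5 and without subclusters with leading markers of another type. At a mitochondrial limit of 10% and with types by marker score alone the 1 gene was Bmp7, as Bmp4 was not tested there. Mural-like cells had 3 genes higher, not 5, without mixed cells, with all other cells summed and without subclusters with leading markers of another type. They had 2 with types by marker score alone. With all other cells summed, 8 genes were lower in podocyte-like cells and 1 in mural-like cells, and 2 were higher in tubular-like cells. That sum is mostly podocyte-like cells, and under it the log2 fold in tubular-like cells was -1.40 for Bmp7, 1.01 for Id3 and 0.036 for Tsc22d1, and in mural-like cells -0.038 for Crim1, each of the other sign than against the mean of types. At a mitochondrial limit of 10%, 1 gene was lower in tubular-like cells (5 without it). The median mitochondrial share was 14.3% in tubular-like cells, most of which lay above that limit, and 4.26% to 6.82% in the other types. The cause was not tested. Without mixed cells, parietal epithelial-like cells were too few for a value. In bulk, CPM by library total gave 0 genes higher.

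Leaving out 1 replicate gave these ranges. Endothelial-like cells had 7 genes higher throughout and 0 to 1 lower, with Bmp7 at log2 folds of -1.86 to 0.011. The value without replicate 1 comes from a fit in which mural-like cells had 0 Bmp7 UMIs, as tubular-like cells had 0 Tgfb1 UMIs without replicate 2, so that the average of the other types had no finite value. Mural-like cells had 4 to 5 higher and 0 to 1 lower, parietal epithelial-like 1 to 2 higher and 1 to 2 lower, podocyte-like 1 higher and 5 lower, and tubular-like 1 to 2 higher and 4 to 5 lower. The mural-like call lower, and the upper counts higher in parietal epithelial-like and tubular-like cells, came from Bmp7 in the same fit without replicate 1. Neighbouring pairs past the threshold numbered 13 to 17. Connecting tubule and principal cell-like cells had 0 to 1 higher. Counts of under 10 UMIs, as for Bmp7, Smad6 and Bmp4 in mural-like cells and Tgfb1 and Eng in tubular-like or parietal epithelial-like cells, limit what depth can show.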
